A study of Arabidopsis thaliana with 29 samples.

Results

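The expression of 8 pathogenesis-related (PR) and defensin genes was followed in Arabidopsis thaliana leaves with raised expression of GLUTAMINE DUMPER (GDU) genes. The genes were PR1 (AT2G14610), PR2 (AT3G57260), PR5 (AT1G75040), the basic chitinase CHIB or PR3 (AT3G12500), PR4 (AT3G04720) and the 3 plant defensin genes PDF1.2a (AT5G44420), PDF1.2b (AT2G26020) and PDF1.2c (AT5G44430). They were chosen by name as classical defence markers, and they are 8 of the 32650 entries of each table. PR5 and PR4 share their entries with a neighbour, as given beside their values.

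PR proteins are small, mostly secreted proteins that plants accumulate on infection, and many of them attack or bind microbial cell walls and membranes. In Arabidopsis leaves PR1, PR2 and PR5 are the usual markers of the salicylic acid branch of defence, in which salicylic acid acts through the co-activator NPR1 and TGA transcription factors. PDF1.2, PR3 and PR4 are used as markers of the jasmonate and ethylene branch, in which the factors ERF1 and ORA59 bind the GCC box of defensin promoters, and the branches can antagonise each other.

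RNA of leaves was sequenced in 29 libraries in 12 groups, each library from 4 to 6 plants of the Columbia accession grown on soil for 23 days. The 23 days are those of the sample records, while the series text gives 4 weeks of growth. Of the 29 libraries, 27 in 10 groups enter 7 comparisons, and the single libraries of 35S-GDU1 and 35S-GDU3 were not analysed here. GDU proteins are small membrane proteins of plants, known to change how cells release amino acids when made in excess. In Dex-GDU1 plants GDU1 is induced by dexamethasone, and 4c-S7 is its parent. Plants of each received a spray of dexamethasone (100 µM) with 300 ppm of the wetting agent Silwet, stayed under a dome for 7 h, and were sampled at 7 h or 25 h, which gave 3 libraries of Dex-GDU1 and 4 of 4c-S7 per time. No unsprayed plants of either line were compared, and time since spraying and time of day cannot be told apart. Constitutive lines were not sprayed. They were gdu1-1D (3 libraries), in which a dominant mutation raises GDU1, and 4 lines with 2 libraries each, labelled 35S-GDU6, 35S-GDU5, 35S-GDU4 and 35S-GDU2. In the 35S lines the cauliflower mosaic virus 35S promoter drives the gene in most tissues, and the libraries of a group carry 1 line name. All 5 constitutive lines were compared with the same 2 libraries of Columbia wild type (Col).

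The authors' deposited tables give 1 FPKM value (fragments per transcript length and sequencing depth) for each gene and group, so the value of single libraries and their spread cannot be shown. A gene was called higher or lower where the authors' Cuffdiff q-value, the p-value adjusted over all genes, was below 0.05, and the standard errors (SE) given here were recomputed from the authors' p-values. Libraries are numbered as biological replicates in the labels, with no word on how plant pools were kept apart, so p-values measure the spread between these samples and this may be technical. In 6 of 7 comparisons of the authors' deposited tables the gene meant to be over-expressed rose, for example GDU1 from 23.3 to 5281 FPKM at 7 h and GDU6 from 9.14 to 30183 FPKM in 35S-GDU6. GDU4 stood at 8.72 FPKM in Col and 10.9 FPKM in the libraries labelled 35S-GDU4 (q = 0.949), so the rise its label implies was not seen. Of 4 leaf markers, CA1 (2237 to 5561 FPKM) and LHCB2.1 (436 to 4758 FPKM) were abundant in all groups, with the calls in the lines given beside the marker counts. RBCS1A and RCA were listed at 0 in some groups. There the tables give the status HIDATA, the Cuffdiff mark for too many fragments at a locus, so these zeros do not mean absence. Among 10 markers of other organs and cell types, RHD6 of root hairs was at 0 everywhere, and the root gene PHT1;1, the floral genes AP3, PI and AG and the trichome gene GL2 reached at most 0.109 to 1.62 FPKM. The epidermal gene ATML1 (18.0 to 24.1 FPKM) and the guard cell genes MYB60 (8.11 to 18.8), KAT1 (6.16 to 20.5) and FAMA (8.99 to 14.6) were present in all groups.

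PR1, PR2 and PR5 rose together in gdu1-1D, 35S-GDU2, 35S-GDU5 and 35S-GDU6 and fell together in the libraries labelled 35S-GDU4. PR1 encodes a small secreted protein of the CAP family, PR2 a beta-1,3-glucanase that cleaves fungal cell wall glucans, and PR5 a thaumatin-like protein. In the authors' deposited tables PR1 stood at 9.73 to 10.8 FPKM in Col, 508 in gdu1-1D, 440 in 35S-GDU2, 1359 in 35S-GDU5, 197 in 35S-GDU6 and 4.85 in the libraries labelled 35S-GDU4. PR1 was 48.8-fold, 43.7-fold, 126-fold and 20.2-fold higher in gdu1-1D, 35S-GDU2, 35S-GDU5 and 35S-GDU6, with the authors' q at most 0.000424, and 2.01-fold lower in the libraries labelled 35S-GDU4 (q = 0.00506). Taken from the deposited test statistic instead, the adjusted p of PR1 in the libraries labelled 35S-GDU4 was 0.715 by the authors' statistic, and that call was lost. PR1 spanned the widest range of levels among the 8 genes, from 4.13 to 1359 FPKM over the 10 groups.

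PR2 is listed by the authors' deposited tables at 50.8 to 56.3 FPKM in Col, 412 in gdu1-1D, 239 in 35S-GDU2, 547 in 35S-GDU5, 92.9 in 35S-GDU6 and 9.02 in the libraries labelled 35S-GDU4. It rose 7.58-fold, 4.54-fold, 9.70-fold and 1.83-fold in the first 4 of these lines and was 5.64-fold lower in the libraries labelled 35S-GDU4 (authors' q = 0.000632). The fall of PR2 in the libraries labelled 35S-GDU4, 2.50 on the log2 scale, exceeded that of PR1 there, 1.01, whereas PR1 had the larger rise in every other constitutive line; these differences between genes were not tested. PR5 shares its entry with the neighbouring thaumatin-like gene TLP-3, so its values cover both genes, whose coding sequences are 77.2% identical. The authors' deposited tables list the joined entry at 71.4 to 79.2 FPKM in Col, 413 in gdu1-1D, 245 in 35S-GDU2, 473 in 35S-GDU5, 119 in 35S-GDU6 and 39.7 in the libraries labelled 35S-GDU4. It rose 5.40-fold, 3.31-fold, 5.98-fold and 1.66-fold in the first 4 of these and fell by 0.85 on the log2 scale in the last. The order of the lines by fold change, with 35S-GDU5 first, then gdu1-1D, 35S-GDU2 and 35S-GDU6, was the same for PR1, PR2 and PR5, all read against the same Col libraries.

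**Figure D1:**
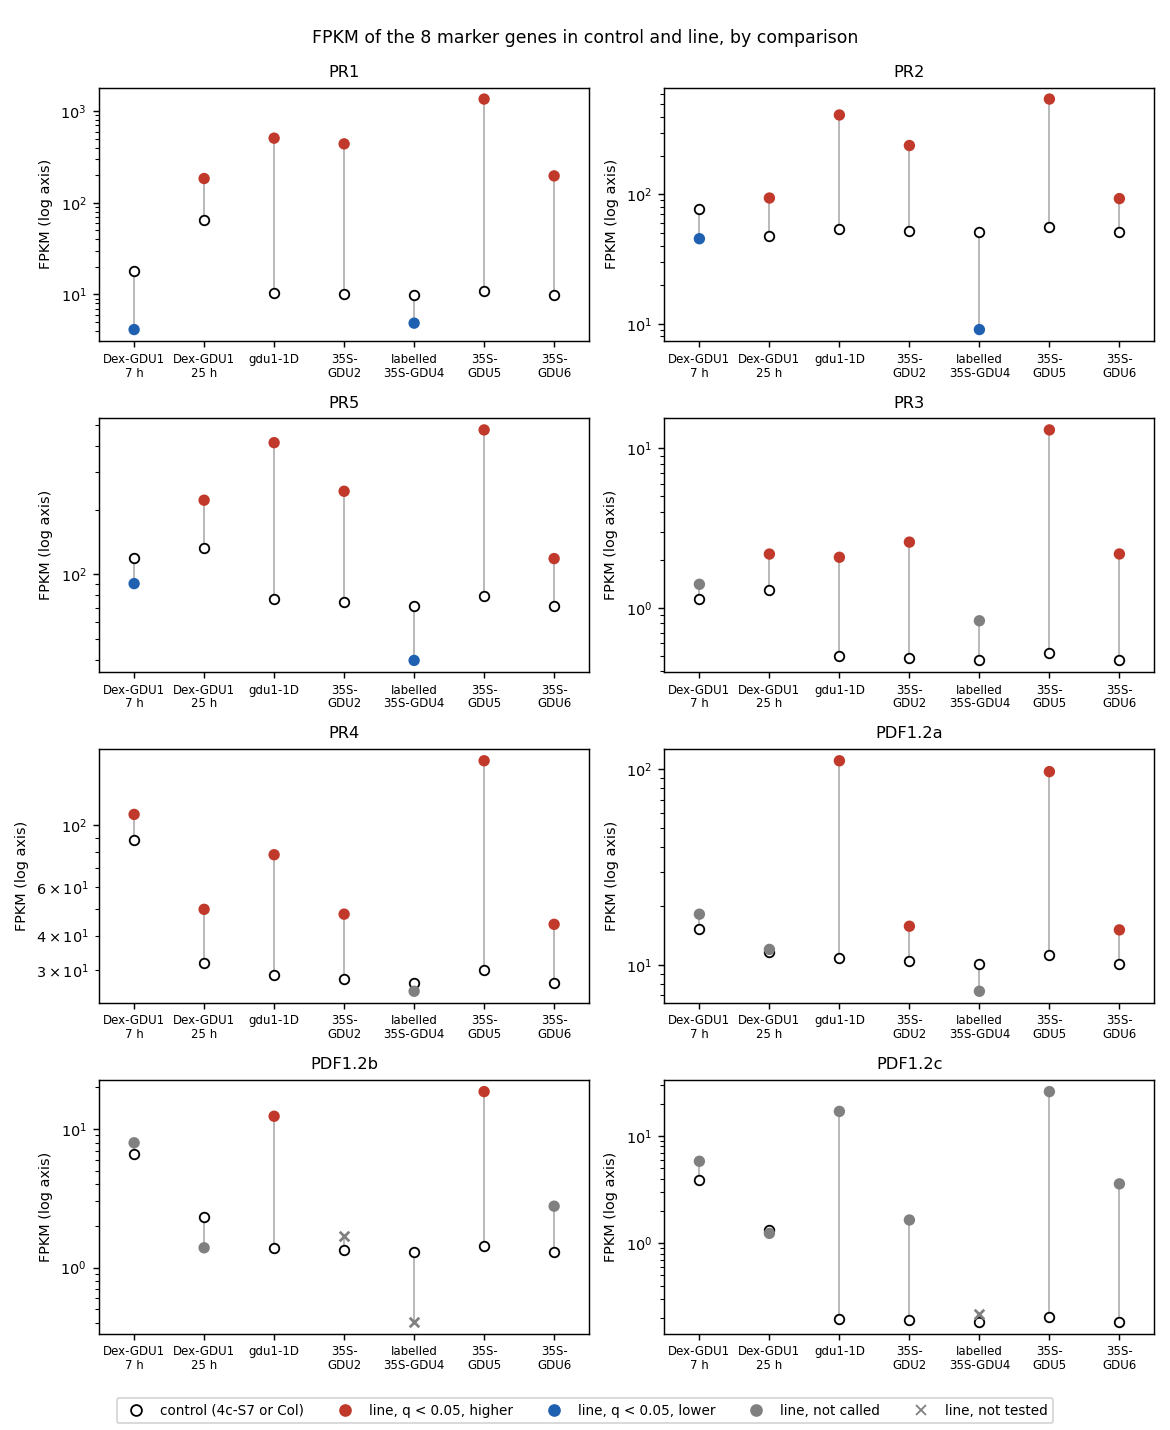
FPKM of each of the 8 genes on a log axis in the control (open circle) and the line (filled circle) of the 7 comparisons, 1 deposited value per group with no replicate values. PR1, PR2 and PR5 are above control in 5 comparisons and below it in Dex-GDU1 at 7 h and in the libraries labelled 35S-GDU4.

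PR1 lies on chromosome 2 of TAIR10 within a stretch of overlapping reads at chr2:6225535-6242463 that it shares with other entries. One of these joins AT2G14595 with PRB1, a basic PR1 homologue whose coding sequence is 83.5% identical to that of PR1. The levels of this joined entry lay close to those of PR1. The authors' deposited tables list it at 8.21 FPKM in Col and 436 FPKM in gdu1-1D, at 8.51 and 1306 FPKM for 35S-GDU5, and at 7.68 and 155 FPKM for 35S-GDU6. PRB1 also has an entry of its own in this stretch, and its levels are not given here. The joined entry was read because its FPKM sum was the largest. No window of 100 bases, the read length, is identical between the PR1 transcript and any other annotated transcript. Whether reads of PR1 enter either PRB1 entry was not tested. PR2 lies at chr3:21188517-21189859 and the joined entry of PR5 and TLP-3 at chr1:28174378-28178940.

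After dexamethasone the salicylic acid markers lay below the parental line at 7 h and above it at 25 h. In the authors' deposited tables PR1 stood at 18.1 FPKM in 4c-S7 and 4.13 FPKM in Dex-GDU1 at 7 h, and at 64.5 and 184 FPKM at 25 h. PR1 at 7 h thus fell by 2.13 (log2, SE 0.53, authors' q = 0.000725) and at 25 h rose by 1.51 (SE 0.37, q = 0.00019). For PR2 the authors' deposited tables list 77.0 and 45.5 FPKM at 7 h and 47.7 and 93.9 FPKM at 25 h. The fall of PR2 at 7 h was 1.69-fold and its rise at 25 h 1.97-fold. The joined PR5 entry stood at 120 and 90.6 FPKM at 7 h, a fall of 0.40 on the log2 scale (SE 0.10), and at 132 and 222 FPKM at 25 h, a rise of 0.75, in the authors' deposited tables. All 6 of these differences passed the authors' test. With the p-value taken from the deposited test statistic, an alternative chosen after the data were seen, PR2 kept its call at 7 h while PR1 (adjusted p = 0.0766 from the authors' statistic) and PR5 (0.533) did not, and all 3 kept it at 25 h.

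The change between the times was tested as the log2 fold change at 25 h minus that at 7 h, with SE taken from the authors' p-values, a normal distribution and Benjamini-Hochberg adjustment over 17114 genes; the tables hold no library values for an exact test. From the authors' p-values it was 3.65 for PR1 (SE 0.64, adjusted p = 7.22e-06), 1.73 for PR2 (SE 0.30, adjusted p = 7.07e-06) and 1.15 for PR5 (SE 0.21, adjusted p = 1.02e-05). These 3 of the 8 genes passed in the positive direction and 0 in the negative direction, where 17.2% of all genes passed in either direction and 10.4% in the positive direction. The other 5 genes did not pass. From the authors' p-values PR3 differed by 0.45 (SE 0.32, adjusted p = 0.350) and PR4 by 0.34 (SE 0.18, adjusted p = 0.184). For PR1, PR2, PR5 and PR4 the authors' p-value was the smallest possible, 5e-05, at both times. Each SE there is set by the fold change alone and is an upper bound only if that p-value holds. Under a normal distribution the deposited test statistic gave larger p at 7 h for PR1 (0.00105), PR5 (0.0140) and PR4 (0.0539). It also did so at 25 h for PR1 (0.00063) and PR4 (0.000267), so these SE may be too small. For PR2 at both times and PR5 at 25 h it gave smaller p. A gene at the smallest p-value with opposite signs at the 2 times passes by construction. For PR1, PR2 and PR5 passing therefore adds nothing to their calls at each time. Of the defensin genes, PDF1.2a differed by -0.22, PDF1.2b by -1.01 and PDF1.2c by -0.69, with adjusted p of 0.474, 0.218 and 0.278. The control moved as well: in 4c-S7, PR1 was 3.56-fold higher at 25 h than at 7 h and PR2 1.61-fold lower, across tables normalised separately and without a test.

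**Figure D2:**
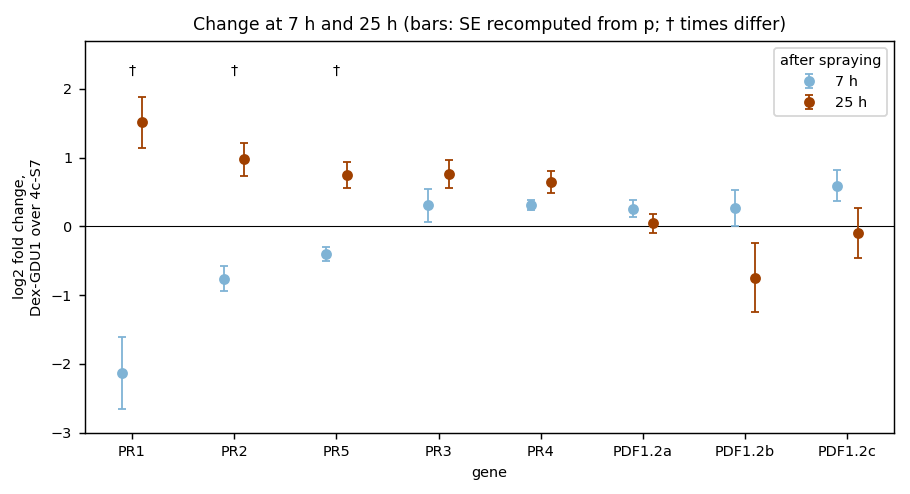
Change of Dex-GDU1 against 4c-S7 at 7 h and at 25 h for each gene on a log2 scale, with bars of 1 recomputed SE. For PR1, PR2, PR5 and PR4 the bars come from the smallest possible p-value and are upper bounds only if that p-value holds. For some of them the deposited test statistic would give a wider bar. PR1, PR2 and PR5 cross from below to above 0, with differences between the times of 3.65, 1.73 and 1.15.

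PR3 and PR4, both linked to chitin, rose in the same 4 constitutive lines and at 25 h. PR3 encodes a basic class I chitinase, an enzyme that cleaves fungal chitin, and PR4 a hevein-like protein with a chitin-binding domain. PR3 was the least abundant of the PR genes, at 0.468 to 0.519 FPKM in Col, 2.08 in gdu1-1D, 2.58 in 35S-GDU2, 13.1 in 35S-GDU5, 2.18 in 35S-GDU6 and 0.830 in the libraries labelled 35S-GDU4, per the authors' deposited tables. It was 4.14-fold, 5.33-fold, 25.1-fold and 4.65-fold higher in the first 4 of these, and the 1.77-fold difference in the libraries labelled 35S-GDU4 was not called (authors' q = 0.193). In the sprayed plants PR3 stood at 1.14 FPKM in 4c-S7 and 1.41 FPKM in Dex-GDU1 at 7 h (authors' q = 0.468), and the authors' deposited tables list 1.29 and 2.17 FPKM at 25 h (q = 0.000699), a call that was lost with the p-value of the deposited test statistic (adjusted p = 0.468). PR3 lies at chr3:3962382-3964222 and overlaps AT3G12502, with which its transcript shares 27.9% of its windows of 100 bases. The strand setting is not given in the sources used here, so reads of these overlapping genes could not be told apart.

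PR4 was called higher in 6 comparisons and lower in 0, the most for any of the 8 genes in 1 direction. The authors' deposited tables list it at 27.0 to 29.9 FPKM in Col, 78.3 in gdu1-1D, 47.8 in 35S-GDU2, 171 in 35S-GDU5, 43.9 in 35S-GDU6 and 25.2 in the libraries labelled 35S-GDU4, where the difference was not called (q = 0.511). The fold increases were 2.71, 1.71, 5.72 and 1.63 in gdu1-1D, 35S-GDU2, 35S-GDU5 and 35S-GDU6. PR4 stood at 88.3 FPKM in 4c-S7 and 110 FPKM in Dex-GDU1 at 7 h in the authors' deposited tables, a rise of 0.31 on the log2 scale (SE 0.08), while PR1, PR2 and PR5 fell. With the p-value of the deposited test statistic PR4 was not called at 7 h. At 25 h both lines were listed with less PR4, 31.8 and 49.8 FPKM in the authors' deposited tables, across tables normalised separately and without a test. The rise of PR4 in Dex-GDU1 over 4c-S7 at 25 h was 0.65 on the log2 scale. The PR4 entry, at chr3:1285524-1287097, also covers AT3G04721.

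The PDF1.2 genes encode small antifungal defensins, and they stood furthest above Col in gdu1-1D and 35S-GDU5. PDF1.2a was listed at 10.1 to 11.2 FPKM in Col, 111 in gdu1-1D, 97.3 in 35S-GDU5, 15.8 in 35S-GDU2, 15.1 in 35S-GDU6 and 7.36 in the libraries labelled 35S-GDU4 in the authors' deposited tables. It rose 10.2-fold in gdu1-1D and 8.67-fold in 35S-GDU5. The rise was 1.51-fold in 35S-GDU2 (authors' q = 0.0132, and 0.184 from the test statistic) and 1.49-fold in 35S-GDU6 (q = 0.00139), with no call in the libraries labelled 35S-GDU4 (q = 0.0949). Among the 8 genes PDF1.2a alone had its highest level in gdu1-1D, where the other 7 were highest in 35S-GDU5. In the sprayed plants PDF1.2a was not called, at 15.2 and 18.2 FPKM at 7 h (q = 0.165) and 11.7 and 12.0 FPKM at 25 h (q = 0.842) in the authors' deposited tables.

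PDF1.2b and PDF1.2c were rarer in Col, at 1.30 to 1.44 and 0.184 to 0.204 FPKM in the authors' deposited tables. PDF1.2b rose to 12.4 FPKM in gdu1-1D (8.94-fold, authors' q = 0.00399) and 18.7 FPKM in 35S-GDU5 (13.0-fold, q = 0.00387). It was not called at 2.77 FPKM in 35S-GDU6 (q = 0.144) and no test was made at 1.70 FPKM for 35S-GDU2 or 0.403 FPKM for the libraries labelled 35S-GDU4, per the authors' deposited tables. PDF1.2c stood at 17.0 FPKM in gdu1-1D, 26.0 in 35S-GDU5, 3.58 in 35S-GDU6 and 1.65 in 35S-GDU2, and none of these passed (authors' q = 0.261, 0.277, 0.358 and 0.466). Its log2 differences of 6.44 in gdu1-1D and 6.99 in 35S-GDU5 carried recomputed SE of 4.58 and 5.41. When the p-value was taken from the deposited test statistic instead, PDF1.2c was called higher in gdu1-1D (q = 9.97e-08), 35S-GDU5 (q = 1.15e-08) and 35S-GDU6 (q = 0.00928). In the sprayed plants, per the authors' deposited tables, PDF1.2b stood at 6.63 FPKM in 4c-S7 and 7.96 FPKM in Dex-GDU1 at 7 h and at 2.33 and 1.39 FPKM at 25 h, and PDF1.2c at 3.87 and 5.82 FPKM and at 1.32 and 1.24 FPKM. None of these 4 differences was called; the closest was PDF1.2c at 7 h (authors' q = 0.0508).

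The coding sequences of the 3 PDF1.2 genes have 243 bases each and are 93.4% to 94.2% identical, and PDF1.3, a defensin gene beside PDF1.2b, is 91.4% to 94.7% identical to them. No window of 100 bases is identical between their transcripts, but the authors' treatment of reads with mismatches is not given in the sources used here, so the split of reads among these genes is uncertain. PDF1.2a (chr5:17907069-17907598) and PDF1.2c (chr5:17908945-17909507) lie next to each other on chromosome 5, and PDF1.2b (chr2:11089250-11089597) lies on chromosome 2. Their promoters, from 250 bases before to 50 bases after the annotated start, are shown together because the genes are nearly identical in coding sequence. These windows differ in whether they hold the GCC box (GCCGCC). The PDF1.2c window opens with letters like those that follow GCCGCC in PDF1.2a. Bases before the window were not searched, so a GCC box further upstream of PDF1.2c would be missed. The TAIR10.1 windows were chr5:17907589-17907888 on the minus strand for PDF1.2a, chr2:11088873-11089172 on the plus strand for PDF1.2b and chr5:17909458-17909757 on the minus strand for PDF1.2c. Capitals mark GCCGCC in PDF1.2a and PDF1.2b, and in PDF1.2c the W box core TTGAC, which WRKY factors are known to bind, where GTCAA is TTGAC on the opposite strand.
PDF1.2a: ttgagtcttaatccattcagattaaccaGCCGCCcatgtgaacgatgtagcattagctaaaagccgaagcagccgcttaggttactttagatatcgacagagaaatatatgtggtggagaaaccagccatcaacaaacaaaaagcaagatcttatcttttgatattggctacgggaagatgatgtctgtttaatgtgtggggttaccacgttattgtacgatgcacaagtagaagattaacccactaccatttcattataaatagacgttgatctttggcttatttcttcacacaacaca
PDF1.2b: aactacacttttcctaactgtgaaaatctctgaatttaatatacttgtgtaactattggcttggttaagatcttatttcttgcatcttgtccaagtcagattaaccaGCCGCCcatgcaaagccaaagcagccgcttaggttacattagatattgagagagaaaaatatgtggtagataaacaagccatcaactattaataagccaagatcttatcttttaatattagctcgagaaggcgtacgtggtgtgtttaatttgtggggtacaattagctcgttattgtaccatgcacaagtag
PDF1.2c: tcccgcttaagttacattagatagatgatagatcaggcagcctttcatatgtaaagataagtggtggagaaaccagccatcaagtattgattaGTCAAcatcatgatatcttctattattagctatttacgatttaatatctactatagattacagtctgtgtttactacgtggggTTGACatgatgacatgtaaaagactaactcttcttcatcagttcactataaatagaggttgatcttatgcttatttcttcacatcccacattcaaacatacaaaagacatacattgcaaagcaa

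GCCGCC stood 222 bases before the annotated start of PDF1.2a and 143 bases before that of PDF1.2b. The letters on either side of it are alike in both windows, and these distances depend on the annotated starts. The deposited PDF1.2b entry begins at 11089250, after the end of its window. Among the windows of 7 genes (PR2, PR5, PR3, PR4 and the 3 PDF1.2 genes), these 2 held it on either strand, against 2.57% of 27443 promoters of protein-coding genes. Both strands were also searched for TTGAC and for TGACG, the core to which TGA factors bind, and the motifs share the letters TGAC, so that TTGACG counts for both. The W box core was found in 3 of 7 windows (PR2, PR5 and PDF1.2c) and in 50.5% of all, and TGACG in 1 of 7 (PR3) and in 23.1% of all. In PR2 the W box core lay 38 bases after the annotated start, not before it. The G box CACGTG, known as a site of MYC factors, was in the PR2 window alone among the 7, 131 bases before the start, and in 7.68% of all promoters. PDF1.2a, with a GCC box in its window, and PDF1.2c, with none inside its window, both stood highest in gdu1-1D and 35S-GDU5. The rise of PDF1.2c was not called in either line (authors' q = 0.261 and 0.277). Any part of the GCC box in these levels was not tested.

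**Figure D3:**
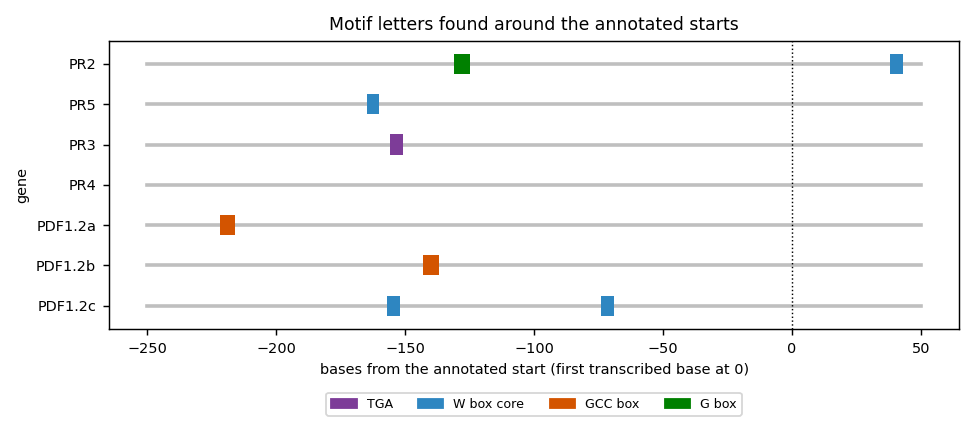
Positions of the TGA motif, the W box core, the GCC box and the G box, in bases from the annotated start, in the promoter windows of 7 genes, searched on both strands. GCCGCC appears in PDF1.2a and PDF1.2b.

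Counted over the 8 genes, gdu1-1D and 35S-GDU5 had the most calls. At 7 h, 1 gene was higher and 3 were lower of 8 tested, where 16.0% of all tested genes were called, 8.76% higher and 7.19% lower. At 25 h, 5 were higher and 0 lower of 8, against 46.1% of all genes called, 24.5% higher and 21.6% lower. In gdu1-1D 7 of 8 were higher, with 44.5% of all genes called, 23.1% higher and 21.4% lower. In 35S-GDU5 7 of 8 were higher, with 55.0% of all genes called, 28.5% higher and 26.5% lower. In 35S-GDU2 6 of 7 tested were higher (24.7% of all genes called, 14.5% higher and 10.2% lower) and in 35S-GDU6 6 of 8 (48.8% called, 24.9% higher and 23.9% lower). In the libraries labelled 35S-GDU4 0 were higher and 3 of 6 lower, with 15.4% of all genes called, 9.65% higher and 5.71% lower. The median log2 fold change of the tested genes was 0.26 at 7 h, 0.70 at 25 h, 3.04 in gdu1-1D, 2.18 in 35S-GDU2 (1.95 with the untested gene), 3.49 in 35S-GDU5, 0.98 in 35S-GDU6 and -0.66 in the libraries labelled 35S-GDU4, where the median of all tested genes stayed within 0.0121 of 0. Of 56 values, 32 were called higher, 6 lower, 15 were not called and 3 were not tested. All 6 falls were of PR1, PR2 and PR5. With a minimum log2 change of 1, 1 gene was called at 7 h, 1 at 25 h and 2 in 35S-GDU6. Some leaf markers were called lower in the 4 constitutive lines where the PR genes rose. CA1 stood at 0.402 of its Col level in 35S-GDU5, 0.599 in gdu1-1D, 0.715 in 35S-GDU2 and 0.722 in 35S-GDU6, all called, and was not called in the other 3 comparisons. RCA was called lower in 35S-GDU5 (0.465 of Col), 35S-GDU2 (0.771) and 35S-GDU6 (0.811), and LHCB2.1 in 35S-GDU5 (0.594) and gdu1-1D (0.843), while LHCB2.1 was 1.41-fold higher at 7 h. The summed level of the 10 markers of other organs and cells was 77.2 FPKM in Col and 50.6 in 35S-GDU5, 69.7 and 49.8 for 35S-GDU6, 74.5 and 57.6 for gdu1-1D, 72.2 and 55.8 for 35S-GDU2 and 62.4 and 52.4 at 25 h, with 4, 4, 4, 3 and 3 of the markers called lower, in the authors' deposited tables. It was 69.8 and 68.1 FPKM for the libraries labelled 35S-GDU4, with 2 lower, and 68.2 and 69.2 FPKM at 7 h, with 0 lower. Of these 10 genes 1 was called higher in 35S-GDU5 (PI, 4.49-fold, authors' q = 0.0187) and 1 at 25 h (AG, 1.52-fold), and AG was called lower in gdu1-1D, 35S-GDU5, 35S-GDU6 and the libraries labelled 35S-GDU4. The guard cell genes MYB60 and KAT1 were called lower in 6 and 5 comparisons, at 0.431 and 0.334 of Col in 35S-GDU5. FAMA was called lower in 3 comparisons and ATML1 in 2. The part of these markers in the result was not tested, and in these whole leaves fewer cells of a type and less RNA per cell cannot be told apart.

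**Figure D4:**
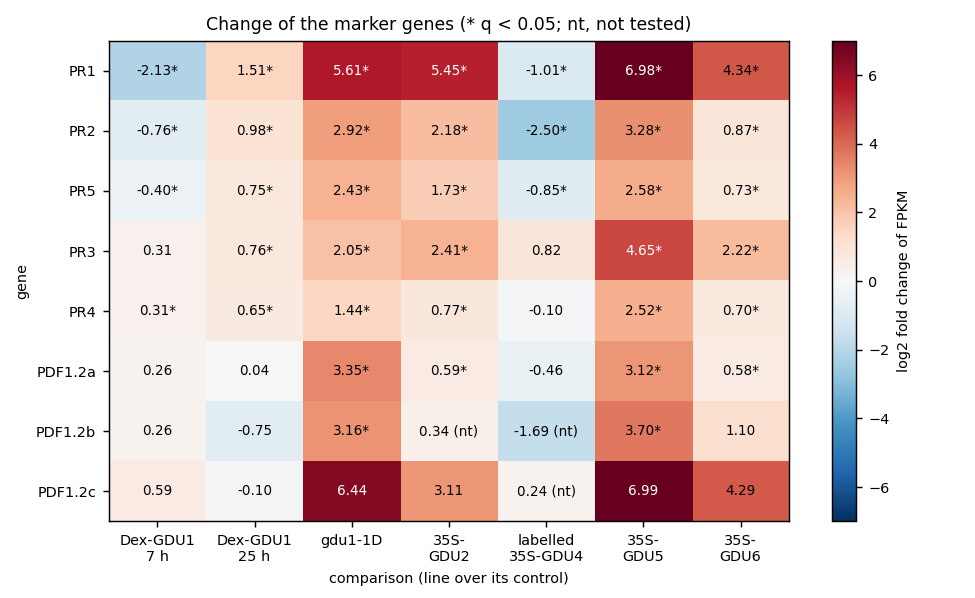
Log2 fold change of FPKM, line over control, for the 8 genes in the 7 comparisons, with an asterisk where the authors' q was below 0.05 and nt where no test was made. PR1 reaches 6.98 in 35S-GDU5 and PDF1.2c has large values without a call.

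The genes whose levels were most like those of the markers were described by Pearson's r of log2(FPKM + 1) over the 10 groups, which share libraries and tables. For PR1 these were the chitinase-family gene CHI (AT2G43570) with r = 0.976, AIG1 with 0.952 and AT4G10860 with 0.951. For PR2 they were DMR6, a salicylic acid hydroxylase, with 0.982, AT1G65500 with 0.973 and DLO1, a related hydroxylase, with 0.969. For PR5 the nearest was RING1 (0.980), for PR3 AT3G61390 (0.977) and for PR4 the amido synthetase GH3.3 (0.983). PDF1.2a was most like AT3G57460 (0.972), followed by the defensin PDF1.3 (0.959). PDF1.2b and PDF1.2c were both most like ACA10, a calcium pump, with 0.972 and 0.975.

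Of the other genes of salicylic acid signalling, most were called higher in gdu1-1D, 35S-GDU2, 35S-GDU5, 35S-GDU6 and at 25 h. Of 29 listed genes in 28 entries, 25 of 28 tested were higher and 0 lower in gdu1-1D (median log2 fold change 1.75), where 23.1% of all tested genes were higher. In 35S-GDU5 25 of 28 were higher and 1 lower (2.25; 28.5% of all genes higher and 26.5% lower), in 35S-GDU2 20 of 28 and 0 (0.84; 14.5% higher), in 35S-GDU6 22 of 27 and 1 (0.64; 24.9% higher and 23.9% lower) and at 25 h 22 of 28 and 0 (1.04; 24.5% higher). At 7 h 6 of 28 were higher and 4 lower (0.01; 8.76% of all genes higher and 7.19% lower), and in the libraries labelled 35S-GDU4 3 of 25 were higher and 6 lower (-0.04; 9.65% higher and 5.71% lower). ICS1, which makes the salicylic acid precursor isochorismate, is listed in the authors' deposited tables at 11.5 FPKM in Col and 54.7 FPKM in 35S-GDU5, a 4.77-fold rise. ICS1 also rose 1.36-fold in 35S-GDU6, 1.48-fold in 35S-GDU2 and 2.86-fold in gdu1-1D. NPR1 rose 2.27-fold in 35S-GDU5 and 1.73-fold in gdu1-1D and was listed at 10.6 FPKM in both Col and the libraries labelled 35S-GDU4 in the authors' deposited tables. ALD1, an enzyme of pipecolic acid synthesis, rose 41.7-fold in gdu1-1D and the transcription factor gene WRKY38 86.4-fold in 35S-GDU5. In the libraries labelled 35S-GDU4, CBP60G, a transcription factor gene upstream of ICS1, rose 4.01-fold, while DLO1 was 4.13-fold, WRKY54 3.29-fold and DMR6 2.42-fold lower. At 7 h CBP60G rose 2.07-fold and ICS1 1.17-fold while DLO1 was 2.42-fold lower, and at 25 h the glutaredoxin gene GRX480 rose 5.74-fold and NIMIN1, an NPR1 interactor, 4.61-fold.

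Between 12 and 19 genes of jasmonate and ethylene control were called higher in each of the 7 comparisons. Of 23 listed genes, 12 of 22 tested were higher and 0 lower at 7 h (median log2 fold change 0.24), where 8.76% of all genes were higher. At 25 h 16 of 22 were higher and 1 lower (1.05; 24.5% of all genes higher), in gdu1-1D 17 of 22 and 0 (1.08; 23.1%), in the libraries labelled 35S-GDU4 14 of 22 and 1 (1.21; 9.65%) and in 35S-GDU2 13 of 22 and 1 (1.53; 14.5%). In 35S-GDU5 19 of 23 were higher and 1 lower (2.41; 28.5% of all genes higher) and in 35S-GDU6 17 of 22 and 0 (2.08; 24.9%). In the libraries labelled 35S-GDU4 ERF6, an ethylene response factor, stood at 1.30 FPKM in Col and 20.7 FPKM in the line, WRKY33 at 6.44 and 62.7 FPKM, and the jasmonate repressor gene JAZ1 rose 9.15-fold, in the authors' deposited tables. VSP1, a vegetative storage protein gene of the MYC branch of jasmonate signalling, rose 63.0-fold in 35S-GDU6, 51.2-fold in 35S-GDU5, 45.5-fold in 35S-GDU2 and 29.6-fold in gdu1-1D. ORA59, the activator of PDF1.2, stood at 1.43 and 2.52 FPKM for gdu1-1D (authors' q = 0.00326) and at 1.48 and 5.65 FPKM for 35S-GDU5, both higher, in the authors' deposited tables. It was lower at 25 h, at 1.83 and 0.918 FPKM in the authors' deposited tables, and was not called in the other 4 comparisons. ERF1 was tested in 35S-GDU5 alone among the 7, where the authors' deposited table lists 0.119 FPKM in Col and 2.30 FPKM in the line (q = 0.0193).

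Of 21 other listed genes of the PR and defensin families, TLP-3 is in the PR5 entry, and of the other 20 entries 9 to 14 were tested in each comparison. Higher and lower calls were 1 and 2 at 7 h (median 0.02), 6 and 2 at 25 h (0.38), 10 and 2 in gdu1-1D (2.24), 3 and 2 in the libraries labelled 35S-GDU4 (-0.03), 7 and 2 in 35S-GDU2 (1.04), 9 and 2 in 35S-GDU5 (3.84) and 9 and 2 in 35S-GDU6 (1.61). The shares of all genes called higher and lower in these comparisons are those given with the 8 genes. Lower calls were 2 of 14 in gdu1-1D against 21.4% of all genes and 2 of 11 at 25 h against 21.6%. They were 2 of 12 in 35S-GDU5 against 26.5% and 2 of 12 in 35S-GDU6 against 23.9%. In these comparisons the share was no larger than over all genes. It was larger at 7 h, with 2 of 10 lower against 7.19% of all genes. The same held in the libraries labelled 35S-GDU4 (2 of 9 against 5.71%) and in 35S-GDU2 (2 of 11 against 10.2%). The list includes the joined PRB1 entry described with PR1. CHI stood at 11.0 FPKM in Col and 378 FPKM in 35S-GDU5, and at 9.93 and 2.59 FPKM for the libraries labelled 35S-GDU4, in the authors' deposited tables. BG3, a glucanase gene near PR2, rose 18.0-fold in gdu1-1D and 19.0-fold in 35S-GDU5. OSM34, an osmotin-like gene of the PR5 family, is listed in the authors' deposited table at 0.101 FPKM in Col and 48.7 FPKM in 35S-GDU5 (q = 0.0128), a 481-fold difference from a very low control. PDF2.2, another defensin gene, rose 2.34-fold in the libraries labelled 35S-GDU4 and 4.20-fold in 35S-GDU6.

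**Figure D5:**
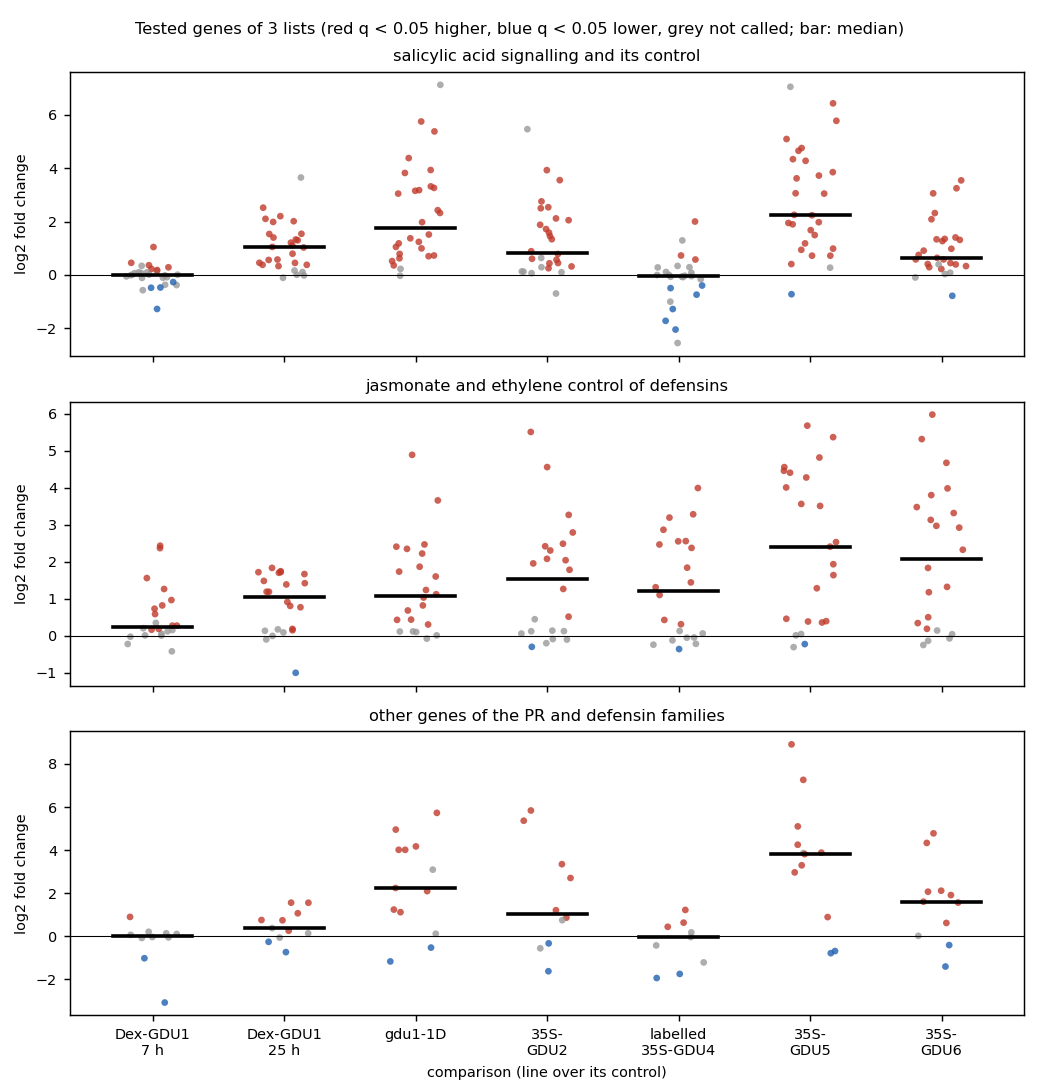
Log2 fold change of the tested genes of 3 lists in the 7 comparisons, red where called higher, blue where called lower and grey where not called, with a bar at the median. The salicylic acid list has medians of 0.01 at 7 h and 1.04 at 25 h, and the jasmonate and ethylene list of 1.21 in the libraries labelled 35S-GDU4.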

How the data were processed

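RNA of leaves was sequenced as paired reads of 100 bases, each library in 2 runs. Per the submitters' processing notes, TopHat2, Cufflinks and Cuffdiff were used with TAIR10; versions, annotation, filters and strand setting are not given in the sources used here. Per the file headers, the authors' tables hold Cuffdiff FPKM values, 1 per gene and group, a test statistic (a score), p-values and q-values (smallest p-value 5e-05). They give no counts, so depth is unknown and no counting interval is given.

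Of 32650 entries, 1238 join several genes. Where a listed gene matched several entries, the one with the largest FPKM sum was read, for example for PRB1, VSP1 and LHCB2.1. Positions are TAIR10 with 1 added to the deposited starts, since 8881 of 21762 entries then begin at the annotated start and 91 do so as listed. Fold changes were computed from FPKM. Genes were called at q below 0.05 where the tables mark a test as made. The deposited p-values and test statistics do not match (median absolute differences of 0.0931 to 0.278). SE was therefore the absolute log2 fold change over the normal quantile of p. At the smallest p-value it is an upper bound only if that p-value holds. The test of the difference between times was tested on simulated data, which share its assumptions. Col values were scaled between tables by medians (factors 0.935 to 1.04) for levels over groups. Promoters came from the RefSeq TAIR10.1 genome and annotation, and 1 promoter window is not reported here. Members, lists and tests were chosen with earlier results of these data known. Named genes were all 8 markers, up to 4 called genes of each list with the largest change per comparison, ICS1, NPR1, ORA59, ERF1 and PRB1, and the 3 genes most like each marker among those with FPKM of at least 5 in a group; part of these are given. The alternatives tried were a stricter q (0.01), a log2 change of 1 or more on 3 scales, FPKM of 1 or more, and no joined entries. Python 3.11.15, numpy 2.4.6, pandas 2.3.3, scipy 1.17.1 and matplotlib 3.10.9 were used.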

Additional observations from a re-analysis of the deposited data

Results flagged for a closer look

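The difference of Dex-GDU1 from 4c-S7 was not the same at 25 h as at 7 h for 3 of the 8 genes, by the test of that difference adjusted over all genes. Their p-values were the smallest possible at both times with opposite signs, so passing this test followed from the calls at each time. The log2 fold change at 25 h exceeded that at 7 h by 3.65 for PR1, by 1.73 for PR2 and by 1.15 for the joined entry of PR5 and TLP-3.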

How the results depend on the processing

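With a minimum log2 change of 1 on the plain scale, on the log2(FPKM + 1) scale or centred on the median gene, the number of the 8 genes called went from 4 to 1 at 7 h, from 5 to 1 at 25 h and from 6 to 2 in 35S-GDU6 under each of these 3 settings. On the log2(FPKM + 1) scale it went from 3 to 1 in the libraries labelled 35S-GDU4. With joined entries left out, which removes PR4 and PR5, it went from 5 to 3 at 25 h, and PDF1.2c gained a call at 7 h (adjusted p = 0.0494 from the authors' p-values). With p-values of the deposited test statistic, an alternative chosen after seeing the data, it went from 4 to 1 at 7 h, and of 53 single values 44 kept their call, 6 lost it and 3 gained it. At 7 h it gave 1 higher call in place of 6 and 1 lower in place of 4 in the salicylic acid list, and 7 higher in place of 12 in the jasmonate and ethylene list. With a minimum log2 change of 1 the higher calls of the salicylic acid list numbered 14 in place of 22 at 25 h, 12 in place of 20 in 35S-GDU2 and 10 in place of 22 in 35S-GDU6. With q below 0.01 1 of 53 lost its call. No value reversed. For the differences between the times the alternatives were adjusted p below 0.01, centring on the median gene and SE from the test statistic. Adjusted p below 0.01 and centring could hardly change the calls of PR1, PR2 and PR5. Their p-values were the smallest possible at both times with opposite signs. With SE from the test statistic all 8 genes kept direction and call. No paired analysis was possible because the deposited tables give 1 value per group, and for the same reason leaving out each replicate was not run. The unknown depth limits PR3, PDF1.2b and PDF1.2c most, at 0.184 to 1.44 FPKM in Col.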

Other observations

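Some defensin and thionin genes outside the 8 markers were lower where the markers were higher. PDF2.3, a defensin gene, stood at 256 FPKM in Col and 159 FPKM in 35S-GDU5 and at 252 FPKM in 4c-S7 and 211 FPKM in Dex-GDU1 at 25 h, lower in both in the authors' deposited tables. THI2.2, a thionin gene, stood at 97.0 FPKM in Col and 56.4 FPKM in 35S-GDU5 and at 55.7 and 33.5 FPKM at 25 h, also lower in both per the same tables. Against 87.7 FPKM in Col, the authors' deposited tables list THI2.2 at 119 FPKM, called higher, in the libraries labelled 35S-GDU4. These genes were picked after their values were seen.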
